A study of Mus musculus with 30 samples.

Results

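The comparison described here set 5 wild-type (WT) mice at week 11 against 5 WT mice at postnatal day 22 (P22), all of the mice that the labels title as wild type at those ages and 10 of the 30 mice in the series. All were female, and the tissue was the cerebellum. P22 mice were decapitated, whereas the week 11 mice died by cervical dislocation, so age and killing method differ together. WT mice at P10, also decapitated, and mice labelled SCA7 KI (a knock-in, KI, for spinocerebellar ataxia 7), 4 of them at P22 and 6 at week 11 and killed by the same methods at the same ages, serve here only for comparison. Each mouse was read on 1 array, with its own RNA in Cy5 and a pool of P10 WT and KI cerebella in Cy3. A value is the log2 ratio of mouse to pool. A difference is the week 11 mean minus the P22 mean on that scale, followed by ± and the standard error of the limma fit, and it is called where the p adjusted over all tested probes was under 0.05.

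The mouse cerebellum has formed its granule cell layer by the time of weaning, and the months that follow are a time of refinement rather than growth. Oligodendrocytes finish wrapping axons during this span; they build myelin from cholesterol made in the brain itself, since lipoproteins of the blood do not cross into it, and the synthesis genes are switched on together by the transcription factor SREBP2 when membranes run short of sterol. Immediate early genes answer to neuronal firing and to stress within minutes.

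The defining markers of the tissue were present: all 17 Purkinje cell genes and all 17 granule neuron genes measured were well above background in Cy5 on every array of both WT groups. The median Cy5 spot signal lay between 184.3 and 551.6 over local backgrounds of 40 to 48 in these 10 arrays. WT P22 mouse 26 had the brightest array and the lowest array weight of the 10, 0.272. The other 4 WT P22 mice shared slide 6, which held no week 11 mouse, and mouse 26 shared slide 7 with week 11 mouse 23. For the other 8 mice slide and age therefore cannot be told apart. A fit with slide as a fixed block rests on mouse 26 for its WT P22 side. In bulk tissue, fewer cells of a type and less RNA per cell cannot be told apart. The labels number the mice separately. The limma p values rest on a spread between mice that was pooled over all 6 groups of the series, KI and P10 mice included.

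Between P22 and week 11 the WT cerebellum changed at 597 of 35087 tested probes (1.7%), 320 of them higher (0.912%) and 277 lower (0.789%) at week 11, for 481 named genes. At least 2-fold changes were fewer, 26 probes higher and 59 lower (0.242% together), and the median size among the called probes was 0.63 on the log2 scale. The step before it, from P10 to P22, called 10444 of 34826 probes (30%) in WT mice, and 9593 without P10 mouse 1, which stood apart from the other P10 mice in granule neuron genes. Both steps share the WT P22 mice. The direction of the calls depended on how the arrays were centred. Median centring of each array in place of loess gave 900 probes higher and 226 lower and moved the median over all genes, each read by its brightest probe, from 0.02 to 0.18, while scale normalisation gave 61 higher and 33 lower. With slide as a random block 302 probes were called (0.861%), 259 of them among the 597, and with slide as a fixed block 1161 (3.31%), 447 higher (1.27%) and 714 lower (2.03%), with 175 among the 597. With scan day as a fixed block 429 probes were called, 84 of them among the 597. A fit of only the WT arrays of P22 and week 11 called 714, with 370 among the 597. Of the called genes named below, those that kept their calls with scan day were Mela, Xdh, Efemp1, Pkd2l1, Nr1h3, H2-Aa, Sqle, Marcksl1, Col4a1, Slc4a7, Rhbdf2 and Serpinb2. Those that kept them under scale normalisation were Mela, Kazald1, Xdh, Efemp1, Apol8, Pkd2l1, Osbpl3, H2bc6, Pln, Nr1h3, Sparc, Ccn1, Rhbdf2 and Serpinb2. Median centring ended the calls of Eraf, Elovl1, Cdkn1a, Cyp46a1, Fosl2 and Ldha beside those given with their groups below.

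**Figure D1:**
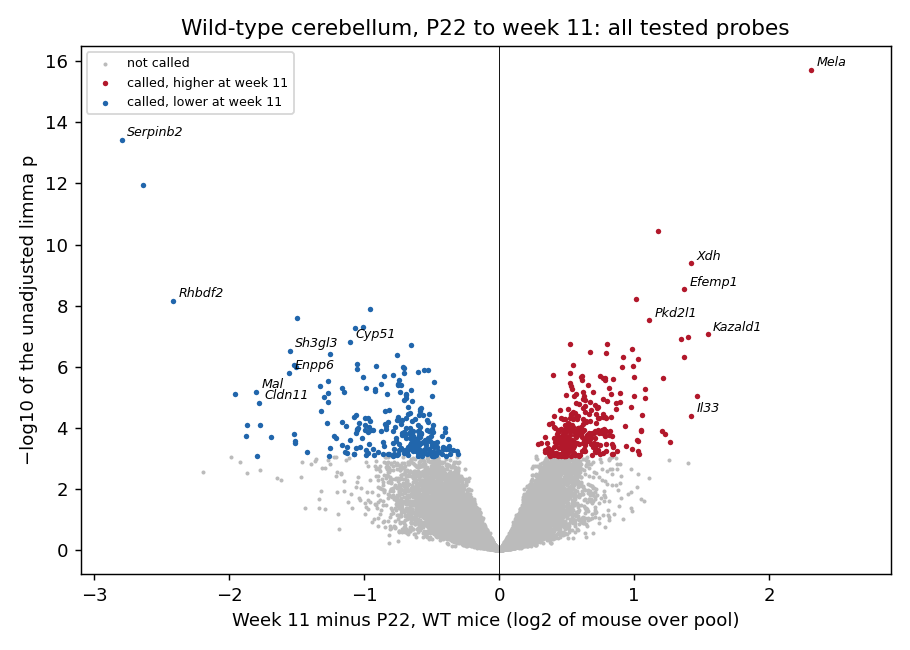
Each point is 1 of the tested probes, with the week 11 minus P22 difference in WT mice on the log2 scale (x axis) against the −log10 of the unadjusted limma p (y axis). Red and blue mark the 320 higher and 277 lower called probes; Mela lies farthest to the right at 2.31 and Serpinb2 farthest to the left at -2.80.

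Mela, a melanoma antigen gene of retroviral origin, had the largest rise. Its values in P22 mice 26, 27, 29, 30 and 31 were -0.76, -0.62, -0.73, -0.68 and -0.40, and in week 11 mice 18, 20, 23, 32 and 33 they were 1.79, 1.85, 1.10, 1.99 and 1.66; all genes below are given in this order of mice. Every week 11 mouse lay above every P22 mouse, by 2.31 ± 0.13 or 4.97-fold (adjusted p = 6.8e-12), although the probe was well above background on only 3 of the 5 P22 arrays. The exact permutation test, 2-sided, of 5 against 5 mice cannot give a p below 0.00794, which every gene with all 10 mice measured and no overlap reaches. Xdh, xanthine dehydrogenase of purine breakdown, stood at 0.50, 0.18, 0.09, 0.16 and 0.10 at P22 and at 1.75, 1.61, 1.86, 1.47 and 1.45 at week 11. It rose by 1.42 ± 0.15 (adjusted p = 2.87e-06) with no overlap, and its other probe was called higher too, at 1.18. Efemp1, the matrix glycoprotein fibulin-3, stood at 0.05, 0.56, 0.63, 0.20 and 0.54 and then at 1.41, 1.75, 1.82, 2.10 and 1.75, a rise of 1.37 ± 0.16 (adjusted p = 1.7e-05). Pkd2l1, a cation channel of the polycystin family, was at 0.57, -0.12, -0.06, 0.03 and -0.07 and then at 0.97, 1.30, 1.36, 0.92 and 1.36. The groups were separate, with a rise of 1.11 ± 0.15 (adjusted p = 9.61e-05), but the P22 side was well above background on 1 of 5 arrays only. Mela, Xdh, Efemp1 and Pkd2l1 kept their calls without each mouse in turn and under every other setting in which they were tested. The sizes of the dim probes depended on the processing. Agilent's log ratios gave 3.60 for Mela and 2.20 for Pkd2l1. An offset of 16 gave Pkd2l1 1.60, and median centring gave it 0.78.

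The remaining large rises included a secreted protein, a cytokine and several enzymes. Kazald1, a secreted protease-inhibitor-like protein, was at 0.41, 0.54, 0.66, 0.31 and 0.16 at P22 and at 1.74, 1.92, 1.84, 2.21 and 2.10 at week 11, a rise of 1.54 ± 0.22 with separate groups (adjusted p = 0.000217). Il33, a cytokine of the interleukin-1 family that the brain's glia store in their nuclei, was at -1.70, -1.48, -1.20, -1.38 and -1.38 and then at 0.42, -0.86, -0.06, 0.07 and 0.40. All week 11 mice were above all P22 mice, mouse 20 by the least, and the rise was 1.42 ± 0.29 (adjusted p = 0.00949). Aass, an enzyme of lysine breakdown, rose by 1.37 ± 0.21, and Apol8, of the apolipoprotein L family, by 1.34 ± 0.19, both with separate groups, while a further probe of Apol8 was at 0.33 and not called. Gpat3, which starts glycerolipid synthesis, was between -0.28 and -0.12 at P22 and between 0.88 and 1.14 at week 11, a rise of 1.20 ± 0.27 (adjusted p = 0.0178). With Agilent's log ratios the Gpat3 call ended (adjusted p = 0.0713). The histone gene H2bc6 rose by 1.08 ± 0.20 with separate groups. The Il33 call ended with slide as a fixed block (adjusted p = 0.0889).

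The smaller of the 15 largest rises were less even. Osbpl3, an oxysterol-binding protein homologue, rose by 1.08 ± 0.19 by the dimmer of its 2 called probes. There mouse 26 was at 1.15 among the week 11 mice and the other P22 mice at -0.19 to 0.12. By the brighter probe it rose by 0.79 with separate groups (adjusted p = 0.000516). With slide as a fixed block the dimmer probe was at 0.37 (adjusted p = 0.331) and with scan day at 0.39 (0.525). Pln, phospholamban, the inhibitor of the calcium pump of the endoplasmic reticulum, rose by 1.06 ± 0.22 with overlapping groups. Its limma adjusted p was 0.0584 with only the WT arrays of P22 and week 11, and 0.204 with Agilent's log ratios. Jade2, a scaffold of a histone acetyltransferase complex, rose by 1.26 ± 0.31, but its other probe stood at 0.06, and the call ended without mouse 27, 29, 30, 31, 32 or 33 (adjusted p = 0.0619 to 0.0867). Plin4, a lipid droplet protein that glucocorticoids induce, was at 1.99 and 2.84 in week 11 mice 18 and 20 and at 0.66 to 0.94 in the other 3, against 0.13 to 0.79 at P22. Its rise of 1.04 ± 0.27 (adjusted p = 0.0457) was lost without mouse 26, 27, 29, 30, 31, 18 or 20 (adjusted p = 0.0623 to 0.115). Chac1, an enzyme of glutathione breakdown, was measured in 3 week 11 mice and rose by 1.03 ± 0.25, a call that ended without mouse 26, 27, 30, 31 or 32 (adjusted p = 0.0548 to 0.114). Jade2, Plin4 and Chac1 had adjusted p of 0.103, 0.188 and 0.179 with slide as a random block, and with slide as a fixed block Jade2 was at 0.34 (0.469).

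**Figure D2:**
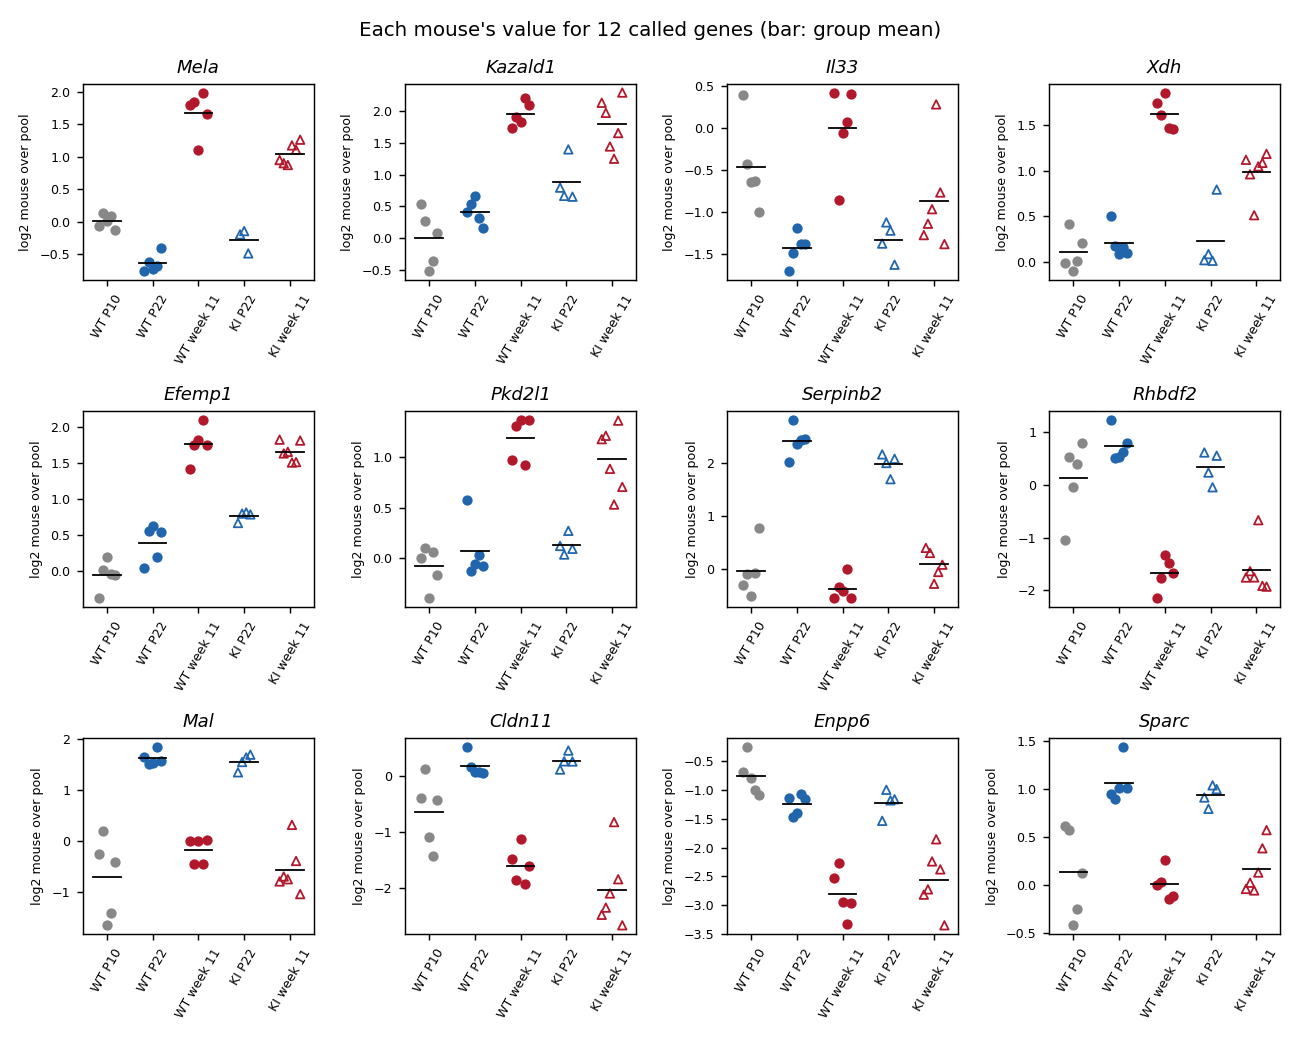
Each panel shows 1 gene, with the log2 ratio of mouse to pool (y axis) for every mouse with a usable value of 5 groups (x axis); filled circles are WT, open triangles KI, and bars group means. In all 12 genes the WT week 11 mice lie apart from the WT P22 mice, and in Serpinb2 the P22 mice also lie above the P10 mice.

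Serpinb2, plasminogen activator inhibitor 2, had the largest fall. It stood at 2.02, 2.82, 2.36, 2.43 and 2.46 at P22 and at -0.56, -0.35, -0.43, -0.01 and -0.55 at week 11, with no overlap, a difference of -2.80 ± 0.19 or 6.95-fold lower (adjusted p = 6.5e-10), and both of its probes were called. P10 mice, at -0.51 to 0.77, were below the P22 mice, and the rise of 2.46 from P10 to P22, which shares the P22 mice, was called too (adjusted p = 2.09e-09). Rhbdf2, the inactive rhomboid iRhom2 that carries the protease ADAM17 to the cell surface, was at 1.24, 0.51, 0.54, 0.62 and 0.80 and then at -2.15, -1.76, -1.34, -1.47 and -1.67. The groups were far apart, 5.34-fold (-2.42 ± 0.30, adjusted p = 3.05e-05), and both probes were called lower. Serpinb2 and Rhbdf2 kept theirs without each mouse in turn and under every other setting in which they were tested. Sh3gl3, endophilin A3 of membrane curvature, fell by 1.55 on the log2 scale with P22 mice at -1.02 to -0.49 and week 11 mice at -2.37 to -1.97. Rab7b, a small GTPase of late endosomes, fell by 1.52 and Gsn, the actin-severing protein gelsolin that oligodendrocytes make in quantity, also by 1.52, both without overlap. The Gsn call ended without mouse 30 (adjusted p = 0.0558) or 32 (0.0595) and under median centring (0.107), and the Rab7b call with slide as a fixed block (0.0795).

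Several other large falls rest on less even values. Slc4a7, a sodium bicarbonate cotransporter, stood at -0.12, -0.30, -0.48, 0.70 and -0.60 and then at -2.50, -1.75, -3.16, -0.54 and -2.66, so mouse 32 lay among the P22 mice, and the difference was -1.96 ± 0.36 (adjusted p = 0.00306). Ptprz1, a receptor phosphatase of glial precursors and astrocytes, was called by 1 of its 4 probes, at -1.86 ± 0.40, while the other 3 stood at -0.42, -0.24 and 0.06. That call ended without mouse 30 (adjusted p = 0.052) or 32 (0.057). LOC673334, named as in the files, was at -1.88 ± 0.43 with week 11 mouse 33 at -4.01, and its call ended without mouse 29 (adjusted p = 0.0524) or 32 (0.0624). Ifi203, an interferon-inducible gene, was at -1.51 ± 0.36 by 1 of 3 probes, the others reaching -0.15, and lost its call without mouse 27, 30, 31, 18, 32 or 33 (adjusted p = 0.0512 to 0.0833). Ifi203 and LOC673334 had adjusted p of 0.0554 and 0.18 with slide as a random block, and with slide as a fixed block LOC673334 was at -1.02 (0.436) and the Ptprz1 call ended (0.06).

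Of 24 measured genes of the myelin sheath, 22 had a negative difference, 4 were called lower and none was called higher, beside 2.04% of all 19001 genes called, 0.868% lower, when each is read by its brightest probe. The median difference was -0.74, beside 0.02 over all genes, and in 15 of the 24 every week 11 mouse lay below every P22 mouse (2.68% of all genes). These shares over all genes also stand beside the list counts that follow from the same fit. Mal, a raft protein that sorts lipids into myelin, was at 1.65, 1.51, 1.52, 1.85 and 1.57 at P22 and at 0.00, -0.45, 0.00, -0.46 and 0.01 at week 11. It fell by 1.80 on the log2 scale (SE 0.33, 3.48-fold, adjusted p = 0.00287), and both of its probes were called. Cldn11, the claudin that seals the layers of myelin, was at 0.53, 0.17, 0.07, 0.07 and 0.06 and then at -1.48, -1.85, -1.12, -1.93 and -1.61. No mouse of one group lay within the other, and the difference was -1.78 ± 0.34 (adjusted p = 0.00478). Ugt8a, which makes galactosylceramide, the chief glycolipid of myelin, was at -1.51 ± 0.37, a call that ended without mouse 27, 29, 30, 20 or 32 (adjusted p = 0.0527 to 0.0795). Tspan2, a tetraspanin of oligodendrocytes measured in 4 P22 mice, was at -1.27 ± 0.26, with adjusted p = 0.0564 without mouse 30.

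Other myelin genes did not pass. Mog, the outermost protein of the sheath, was at -1.29 ± 0.37 with separate groups and an adjusted p of 0.0767, just outside the threshold. Myrf, the transcription factor that drives myelin genes, was at 0.02, the connexin Gjb1 at -0.03 and the adhesion protein Cntn2 at 0.04. Mbp, myelin basic protein, could not be sized: it was saturated in Cy5 on all 5 P22 arrays and on 2 of the week 11 arrays. In each mouse, the median over the myelin genes was between 0.06 and 0.39 at P22 and between -0.67 and -0.12 at week 11. WT P10 mice 1 and 2, at 0.21 and 0.46, lay above the other 3, at -0.86 to -0.17, so no order of P10 against the later ages is given. On slide 7 alone the median difference was -0.63. Median centring of the arrays, scale normalisation and scan day as a fixed block left none of the 4 calls, with medians of -0.395, -0.68 and -0.67, and 2 were called without mouse 30; relative to the median over all genes the first of these was -0.57.

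Of the genes that mark newly formed oligodendrocytes, which leave the precursor stage and have not yet built sheaths, 8 of 10 measured were lower. The 2 called were both lower, beside 0.868% of all genes called lower. Enpp6, a choline phosphodiesterase that marks these cells, was at -1.14, -1.47, -1.40, -1.07 and -1.16 at P22 and at -2.52, -2.27, -2.94, -3.32 and -2.97 at week 11. The groups were well apart, and it fell by 1.56 on the log2 scale (2.94-fold, SE 0.26, adjusted p = 0.00127), with its other probe called at -0.79. Rras2, a small GTPase, fell by 0.69 with separate groups, all 3 of its probes being called, but not with slide as a fixed block (adjusted p = 0.12) or under median centring (0.303). Bmp4, a growth factor these cells express, was at -0.45 (adjusted p = 0.0749). Among 13 oligodendrocyte precursor genes the median was -0.19, and Ptprz1, with the disagreeing probes, was the 1 called. Gpr17, a receptor at the end of the precursor stage, was at -0.91 with separate groups (adjusted p = 0.105). Pdgfra, the growth factor receptor that defines the precursors, was at -0.19 (adjusted p = 0.801), with P22 mice at -2.10 to -1.76 and week 11 mice at -2.31 to -1.73.

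**Figure D3:**
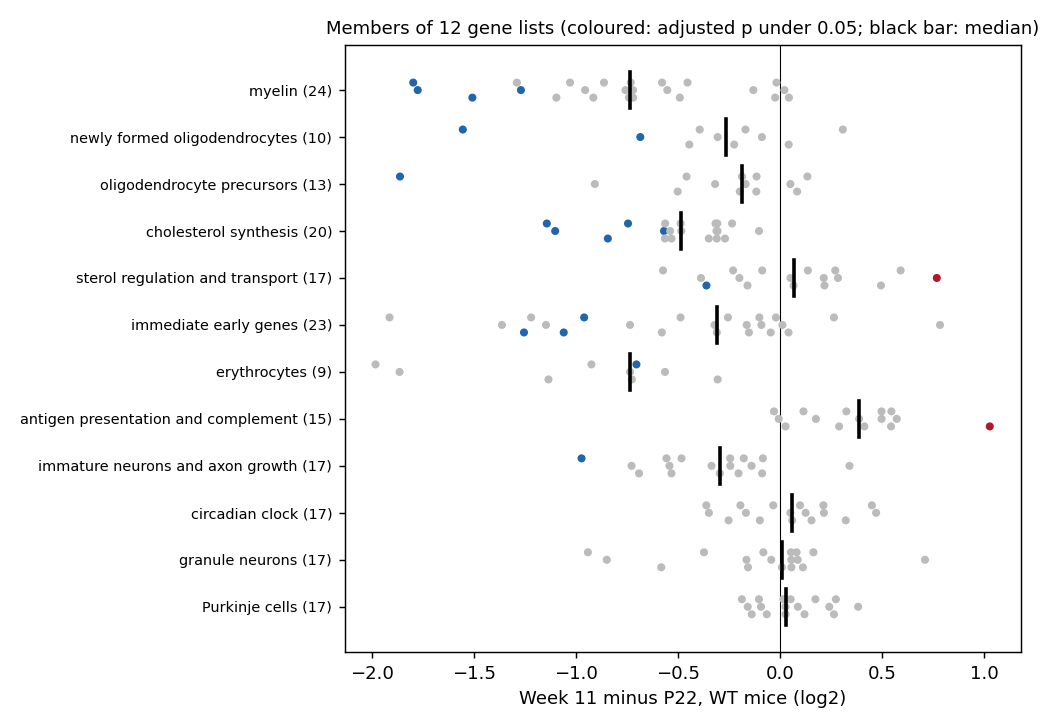
Points are genes of 12 lists, placed by their week 11 minus P22 difference in WT mice (x axis, log2) and spread vertically only for legibility; the number measured stands beside each list, coloured points were called and black bars are medians. The cholesterol synthesis genes all lie left of 0, with a median of -0.49, while the granule neuron and Purkinje cell medians lie at 0.01 and 0.03.

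All 20 measured genes of cholesterol synthesis had a negative difference, from -1.15 to -0.10 with a median of -0.49. Of these 5 were called lower, beside 0.868% of all genes. In 10 of the 20 every week 11 mouse was below every P22 mouse, beside 2.68% of all genes. The called genes stand along the pathway, from Hmgcs1 (HMG-CoA synthase) through Idi1 (isopentenyl diphosphate isomerase) and Fdps (farnesyl diphosphate synthase) to Sqle (squalene epoxidase) and Cyp51 (lanosterol demethylase). The promoters of the called genes that have an entry in the RefSeq promoter table are shown because SREBP2 and NF-Y are known to act together at this pathway. Each is the 250 bases before the gene's start on GRCm38.p6, read 5′ to 3′ on the gene's strand, at chr13:119690101-119690350 (plus strand) for Hmgcs1, chr5:4104698-4104947 (minus strand) for Cyp51 and chr13:8885356-8885605 (plus strand) for Idi1. Capitals mark CCAAT, the letters NF-Y reads, and TCACNCCAC, a form of the sterol regulatory element, each searched on both strands.
Hmgcs1: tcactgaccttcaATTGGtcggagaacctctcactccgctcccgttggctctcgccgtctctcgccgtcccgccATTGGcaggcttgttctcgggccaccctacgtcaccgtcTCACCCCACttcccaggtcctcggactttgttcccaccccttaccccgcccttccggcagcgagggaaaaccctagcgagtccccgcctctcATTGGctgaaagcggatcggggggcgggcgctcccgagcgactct
Cyp51: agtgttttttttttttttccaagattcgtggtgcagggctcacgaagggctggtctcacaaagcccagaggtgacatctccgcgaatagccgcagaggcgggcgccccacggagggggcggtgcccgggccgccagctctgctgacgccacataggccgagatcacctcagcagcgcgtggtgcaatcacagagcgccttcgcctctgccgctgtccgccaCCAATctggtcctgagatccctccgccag
Idi1: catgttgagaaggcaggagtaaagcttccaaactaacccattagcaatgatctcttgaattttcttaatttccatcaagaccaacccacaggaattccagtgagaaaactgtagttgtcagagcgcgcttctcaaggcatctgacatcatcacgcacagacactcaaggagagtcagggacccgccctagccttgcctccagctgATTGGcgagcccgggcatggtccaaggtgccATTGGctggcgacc
Some genes have several starts, and a gene counted where any of its windows matched. CCAAT was found in 14 of the 15 synthesis genes with a window (93.3%), beside 39.4% of the 14106 genes that were both tested on the array and in the table. It was in 8 of 12 genes of sterol regulation and transport (66.7%) and in 8 of 17 myelin genes (47.1%). GGGCGG, the GC box, can lie beside either motif or share end letters with it, and was counted separately. It was in 14 of 15 synthesis genes (93.3%) and in 53.6% of all tested genes. In the sterol regulation and transport list it was in 8 of 12 (66.7%), and in 4 of 17 myelin genes (23.5%). TCACNCCAC was in Hmgcs1 alone of the 15, 137 bases before the start, and in 1.26% of all tested genes. These are matches of letters in a window and not measured binding.

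Cyp51, whose promoter holds 1 of these CCAAT matches, was at -0.89, -0.87, -0.45, -0.67 and -0.72 at P22 and at -1.81, -2.25, -1.69, -1.64 and -1.73 at week 11. It fell by 1.10 on the log2 scale (2.15-fold, SE 0.15, adjusted p = 0.000317) with separate groups, and all 3 of its probes were called. Hmgcs1, with 3 CCAAT matches, was measured at -0.60, -0.91 and -0.89 in P22 mice 26, 27 and 29 and at -1.90, -2.31, -1.83 and -1.74 in week 11 mice 18, 20, 23 and 32. The groups were apart and the difference was -1.15 ± 0.29 (adjusted p = 0.0417), but it lost the call without mouse 30, 31, 18, 20, 23, 32 or 33 (adjusted p = 0.0514 to 0.101), the only ones whose removal left it testable. Sqle was at -0.71, -1.04, -1.10, -1.40 and -1.45 and then at -2.03, -2.23, -1.92, -1.91 and -1.83, a separate fall of 0.85 on the log2 scale (adjusted p = 0.00755). Idi1 was at -0.96, -0.88, -0.49, -1.06 and -0.94 and then at -1.71, -2.10, -1.49, -1.38 and -1.40, a separate fall of 0.75 (adjusted p = 0.0103). Fdps was at -0.57 ± 0.14 (adjusted p = 0.0408) and kept the call only without mouse 26, with adjusted p = 0.0601 to 0.126 without each other mouse. The other Fdps probe was at -0.27 and the other Idi1 probe at -0.77, neither of them called (adjusted p = 0.622 and 0.063). A further Hmgcs1 probe was called at -0.86, while another, at -0.62, was not (adjusted p = 0.088).

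In each mouse, the median over the 20 synthesis genes lay between -0.80 and -0.58 at P22 and between -1.32 and -1.10 at week 11, with no overlap. The P10 mice lay between -0.32 and 0.24, and from P10 to P22, a comparison that shares the P22 mice, 14 of 19 were called lower, or 11 of 18 without P10 mouse 1, beside 18.6% of all genes. On slide 7, where mouse 26 stands against mouse 23 and both are already in the comparison, the median difference was -0.47. Median centring of the arrays left 12 of 20 lower with a median of -0.10 and no call; relative to the median over all genes it was -0.28, and 19 of 20 lay below that median. Scale normalisation kept all 20 lower, also with no call. Scan day as a fixed block left 1 call, and leaving out 1 mouse left 4 without mouse 26 and 3 without each other mouse. With slide as a random block 3 were called, Idi1 and Fdps having adjusted p of 0.0932 and 0.0815, and with slide as a fixed block Sqle was at -1.55.

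**Figure D4:**
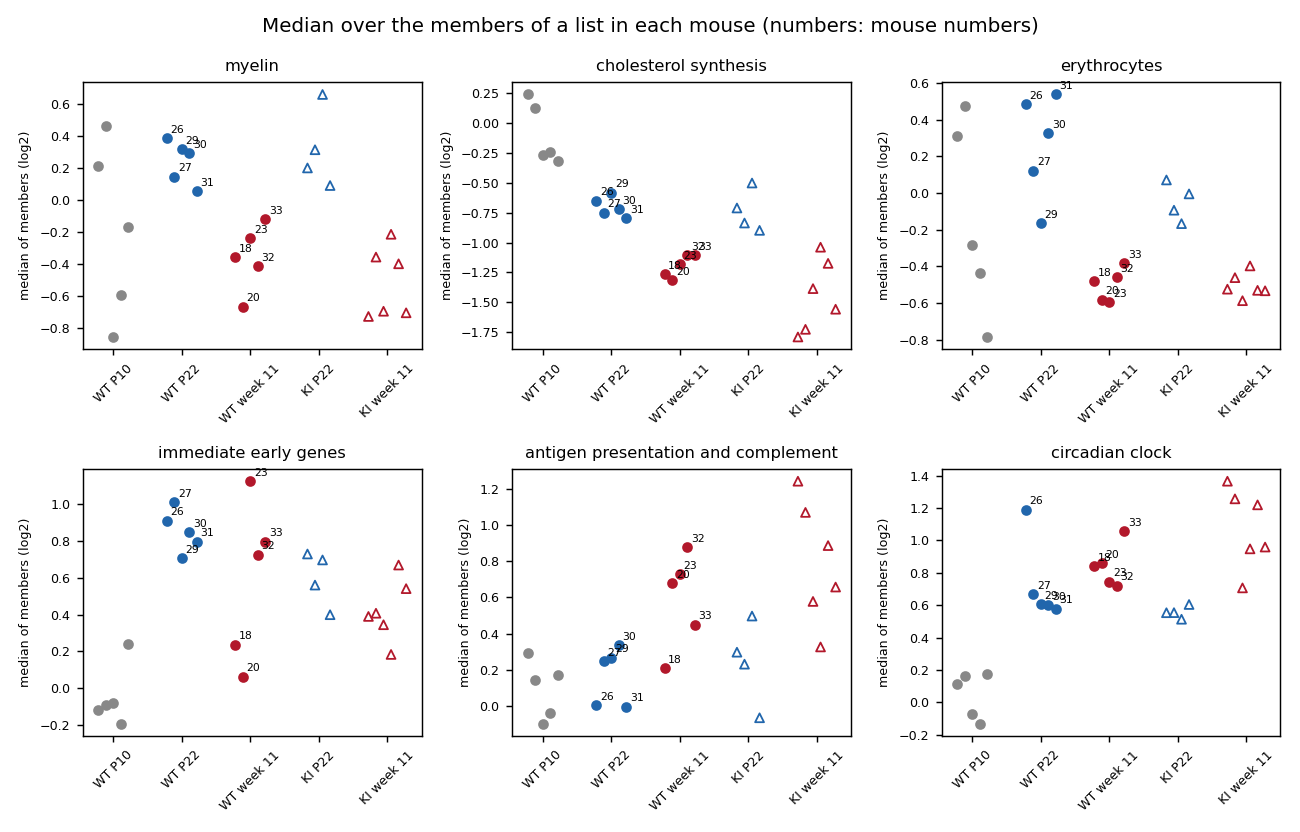
Each point is 1 mouse and shows the median over the measured members of a list (y axis, log2 of mouse over pool) in 5 groups (x axis); filled circles are WT, open triangles KI, and numbers give the WT mice. The WT P22 and week 11 mice do not overlap for myelin, cholesterol synthesis and erythrocyte genes, while week 11 mice 18 and 20 stand below the rest for immediate early genes and P22 mouse 26 above the other P22 mice for clock genes.

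Of 17 measured genes that sense and move sterol, 10 were higher and 7 lower, with a median of 0.07. Nr1h3, the oxysterol receptor LXR-alpha that turns on cholesterol export, was at 0.67, 0.58, 0.57, 0.33 and 0.41 at P22 and at 0.99, 1.05, 1.56, 1.33 and 1.45 at week 11. It rose by 0.77 ± 0.13 with separate groups (adjusted p = 0.0015) and kept the call without each mouse in turn. Cyp46a1, the neuronal hydroxylase that lets cholesterol leave the brain, was at -0.36 ± 0.10 with overlap, called at an adjusted p of 0.0456 that rose to 0.0566 to 0.121 without mouse 26, 27, 29, 31, 18, 20, 32 or 33 and was 0.0701 with slide as a random block. Srebf2, which encodes SREBP2, was at 0.22 (adjusted p = 0.548) and Insig1, which holds SREBP2 back in the endoplasmic reticulum, at -0.58 (adjusted p = 0.0881). Srebf1, the relative that drives fatty acid genes, was at 0.49 and the cholesterol-storing enzyme Soat1 at 0.59 (adjusted p = 0.0644 and 0.064). Of 17 genes of fatty acid and sphingolipid synthesis 12 were lower with a median of -0.11, and Elovl1, which makes very long acyl chains, was the 1 called, at -0.68 ± 0.18 with separate groups. Its adjusted p of 0.0468 rose to between 0.0518 and 0.123 without any 1 mouse.

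Immediate early genes were spread widely among the week 11 mice. Of 23 measured, 19 were lower with a median of -0.31, and 3 were called, all lower, beside 0.868% of all genes called lower. Without mouse 23 8 were called lower, without mouse 18 none, and without each other mouse 1 or 2. Fos, the best known of them, was at 3.36, 3.13, 2.91, 3.22 and 3.05 at P22 and at 0.41, -1.26, 3.23, 2.15 and 1.56 at week 11. Mouse 23 lay among the P22 mice and mice 18 and 20, which shared slide 5, lay lowest, and the difference of -1.92 ± 0.53 did not pass (adjusted p = 0.0618). Npas4, a transcription factor induced by calcium entry, was at 2.32, 2.12, 1.75, 2.55 and 2.33 and then at 0.35, -0.32, 2.02, 1.33 and 1.40. It fell by 1.26 on the log2 scale (adjusted p = 0.0494) with overlap, and the call held only without mouse 23 (0.0521 to 0.143 without each other mouse). Ccn1, a matricellular protein, and Fosl2, a Fos relative, were at -1.06 and -0.96, again with mouse 23 highest at week 11, at 1.27 and 1.20, and the other Fosl2 probe was at -0.02. The Ccn1 call ended without mouse 27, 29, 18, 32 or 33 (adjusted p = 0.0527 to 0.0637) and the Fosl2 call without mouse 30, 31, 18 or 20 (0.0918 to 0.114). Fitted on only the WT arrays of P22 and week 11, Npas4, Ccn1 and Fosl2 had limma adjusted p of 0.105, 0.113 and 0.169. Arc, the synaptic member of the class, went the other way at 0.78 with all week 11 mice above all P22 mice (adjusted p = 0.129). On slide 7 the median over the list was 0.02, and none of the 3 calls held with slide as a fixed block (3.17% of genes called, 1.71% lower) or as a random block (1.04%, 0.479% lower), where Npas4, Ccn1 and Fosl2 had adjusted p of 0.164, 0.279 and 0.235. From P10 to P22 16 of 23 had been called higher, or 14 without P10 mouse 1, beside 14% of all genes.

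None of 17 circadian clock genes was called, and their median was 0.06; mouse 26 stood at 1.19 in the median over these genes and the other P22 mice at 0.58 to 0.67. Per2, a core repressor of the clock, was at 1.54, 0.85, 0.80, 1.31 and 1.42 at P22 and at 0.94, 1.31, 0.91, 0.49 and 0.47 at week 11, overlapping groups that differed by -0.36. Of 13 glucocorticoid-responsive genes 1 was called each way, Plin4 higher and Cdkn1a, the cell cycle inhibitor p21, lower at -0.78 ± 0.20 with separate groups. Their adjusted p were 0.188 and 0.218 with slide as a random block. The Cdkn1a call ended without mouse 26, 30, 31, 18, 23, 32 or 33 (adjusted p = 0.0545 to 0.159). Of 12 hypoxia genes Ldha, lactate dehydrogenase A, was the 1 called, at -0.46 ± 0.11, with a value of 0.05 under median centring and adjusted p = 0.0535 to 0.138 without mouse 29, 30, 31, 18, 20, 32 or 33. Its adjusted p was 0.276 with slide as a random block, and as a fixed block it was at -0.15. Of 11 cytosolic heat shock genes Bag3, a co-chaperone, was the 1 called, at 0.67 ± 0.16 with separate groups, and its other probe was at 0.19. That call ended with slide as a random block (adjusted p = 0.181), as a fixed block (0.4, at 0.38), and without mouse 27, 29, 20, 23, 32 or 33 (0.0508 to 0.0799).

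All 9 measured genes of red blood cells were lower at week 11, with a median of -0.74. In none of them did the groups overlap, whereas 2.68% of all genes had every week 11 mouse below every P22 mouse. By its brightest probe 1 was called, beside 0.868% of all genes called lower. There were 3 calls without mouse 29 and none without mouse 27, 30, 31, 18, 20, 23, 32 or 33. Alas2, the first enzyme of haem synthesis in red cells, was at 0.90, 0.05, -0.47, 0.43 and 1.03 at P22 and at -1.39, -2.08, -1.39, -1.63 and -0.90 at week 11, a difference of -1.87 ± 0.58 (adjusted p = 0.0941). Every week 11 mouse lay below the lowest P22 mouse. Eraf, which keeps free alpha-globin soluble and is among the 15 largest falls, was at -1.79 ± 0.48 and its call ended whichever of the 10 mice was left out (adjusted p = 0.054 to 0.138) and with slide as a random block (0.0913). Epb42, a protein of the red cell membrane skeleton, was not well above background on any week 11 array and was at least 1.52-fold lower (adjusted p = 0.0721). The haemoglobin transcript Hbb-bt was saturated on all 5 P22 arrays and on 3 of the week 11 arrays. Killing method and age cannot be told apart here.

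Vessel and matrix genes gave calls in both directions. Of 14 endothelial genes 2 were called, both lower, beside 0.868% of all genes called lower. Kdr, the receptor for vascular endothelial growth factor, was at -1.01, -0.97, -0.76, -1.09 and -0.65 and then at -2.07, -1.35, -1.80, -1.79 and -2.28. Cldn5, the claudin of the blood-brain barrier, was at -0.58 ± 0.13 with mouse 23 among the P22 mice. Kdr fell by 0.96 with separate groups (adjusted p = 0.0162, and 0.0578 without mouse 33), and the Cldn5 call ended without mouse 30, 20, 32 or 33 (adjusted p = 0.05 to 0.0726). The median over the endothelial list was -0.06, and that over 10 mural cell genes was 0.18 with none called. Of 16 genes of the extracellular matrix 2 were called higher and 2 lower, beside 1.17% and 0.868% of all genes. Sparc, a collagen chaperone that astrocytes and vessels secrete, was at 0.95, 0.89, 1.00, 1.43 and 1.01 and then at 0.00, 0.03, 0.26, -0.15 and -0.11. It fell by 1.05 on the log2 scale with separate groups (adjusted p = 0.00108). Col4a1, a collagen of basement membranes, fell by 1.06 with separate groups, while Efemp1 was higher, as given above. The other Col4a1 probe was at -0.84 with overlap and was not called (adjusted p = 0.064). Col5a1, a fibrillar collagen, was called at 0.71 with overlap while its other, dim probe was at 0.06, and that call ended without mouse 27, 29, 30, 31, 18, 23, 32 or 33 (adjusted p = 0.0664 to 0.138). Of 11 genes of the insulin-like growth factors Igfbp3, a binding protein, was the 1 called, at 0.54, 0.60, 0.41, 1.49 and 1.14 and then at -0.01, -0.29, -0.21, -0.17 and -0.13. It fell by 0.99 on the log2 scale with separate groups (adjusted p = 0.0105), while its other probe was at -0.24 (adjusted p = 0.461). Igfbp3, Cldn5 and Col5a1 had adjusted p of 0.0678, 0.227 and 0.391 with slide as a random block, and with slide as a fixed block the calls of Kdr (0.0592) and Sparc (0.0681) ended too. Median centring ended the calls of Kdr, Cldn5, Sparc, Col4a1 and Igfbp3 (0.0802 to 0.544).

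Of 15 genes of antigen presentation and complement measured, 13 had a positive difference, with a median of 0.39, and 1 was called, beside 1.17% of all genes called higher; 3 were higher in every week 11 mouse than in any P22 mouse (3.12% of all genes). H2-Aa, a chain of the class II major histocompatibility complex, was at -0.32, 0.52, 0.28, 0.18 and -0.09 at P22 and at 0.67, 0.90, 1.47, 1.56 and 1.11 at week 11. All week 11 mice were above all P22 mice, by 1.03 ± 0.25 (adjusted p = 0.0262), and the call ended without mouse 26, 30, 31, 23, 32 or 33 (0.0522 to 0.0914). With slide as a fixed block it was at 1.85. The other class II genes H2-Ab1, H2-Eb1 and Cd74, the invariant chain, were at 0.50, 0.39 and 0.54 and did not pass. Of 15 genes of microglia and macrophages none was called, with a median of -0.11, and of 9 genes of blood granulocytes and monocytes none was called, with a median of -0.02.

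Neuronal genes gave few calls. None of 17 granule neuron, 17 Purkinje cell, 13 interneuron, 17 ionotropic glutamate receptor and 14 GABA-A and glycine receptor genes was called, and the medians lay between -0.10 and 0.03. These medians depended on slide. With slide as a fixed block they were, in that order, -0.43, -0.06, -0.26, -0.58 and -0.11. As a random block it gave -0.26, -0.06, -0.03, -0.31 and -0.02. The granule neuron medians of single mice lay between 1.12 and 2.21 at P22 and between 1.06 and 1.62 at week 11. None of 19 oxidative phosphorylation genes was called, with a median of 0.06. Of 17 genes of immature neurons and axon growth 16 were lower, with a median of -0.30, and Marcksl1, an actin-binding protein of growing neurites, was the 1 called, at -0.97 ± 0.25. It stood at -0.87, -1.99, -1.97, -1.94 and -2.03 and then at -3.06, -3.03, -1.95, -2.86 and -2.77, with mouse 23 among the P22 mice, and lost the call without any mouse other than 23 (adjusted p = 0.0567 to 0.107). With median centring 8 of these 17 were lower and the Marcksl1 call ended (adjusted p = 0.155), and with slide as a fixed block Marcksl1 was at -1.48. The 19 cell cycle genes measured had a median of -0.17 and no call. Atxn7, the gene in which the KI mice carry their mutation, was at 1.37, 0.70, 0.41, 0.53 and 0.43 at P22 and at 0.97, 0.81, 1.12, 0.26 and 0.66 at week 11. The groups overlapped, and the difference of 0.08 ± 0.20 did not pass (adjusted p = 0.925, exact permutation p = 0.77).

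The same step was measured in KI mice, which are other animals but share the pool and killing methods with the WT mice; KI mice 17, 19, 21, 22 and 34 also share slides with them. There 454 of 33342 probes were called (1.36%), 188 higher and 266 lower. Of the 559 probes called in WT and tested in KI, 524 had the same sign, beside 60.22% of all tested probes, and 150 were called in KI too, all in the same direction; these are 26.83% of the WT calls and 33.26% of the KI calls. All 55 called genes that the naming rule chose had the same sign in KI mice, and of the 47 that could be tested there 29 were called. Serpinb2 stood at 2.16, 2.00, 1.70 and 2.08 in the 4 KI P22 mice and at -0.28 to 0.39 in the 5 KI week 11 mice with a value, a difference of -1.90 (adjusted p = 1.39e-05). Rhbdf2, Mal and Cldn11 differed there by -1.95, -2.12 and -2.32, without overlap between the KI ages and with adjusted p of 0.000885, 0.00092 and 0.000603. Cyp51, Sqle and Idi1 had 2 usable KI P22 arrays each and were not tested, at -1.45, -1.35 and -1.34. Of the 15 cholesterol synthesis genes tested in KI all were lower and 6 were called, beside 1.04% of all genes called lower there, with a median of -0.58, and of 20 myelin genes 18 were lower and 6 were called, with a median of -0.90.

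**Figure D5:**
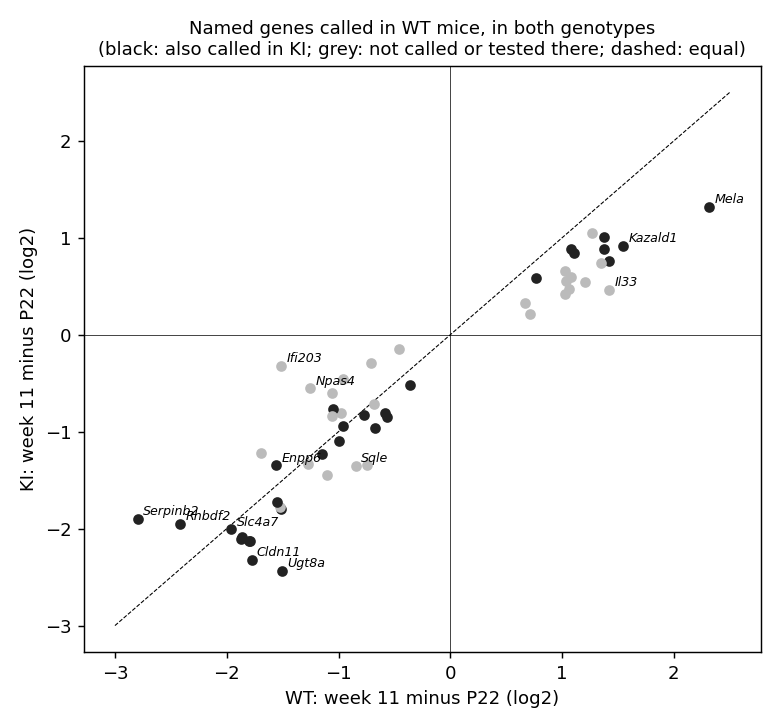
Each of the 55 points is a gene that the naming rule chose and that was called in WT mice, with its week 11 minus P22 difference in WT mice (x axis) and in KI mice (y axis), both log2. All points have the same sign on both axes, and Mela (2.31 and 1.32) and Il33 (1.42 and 0.46) lie below the dashed line of equal values.

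No probe differed in its step between the genotypes after adjustment. Limma called 0 of 33187, with 1851 at an unadjusted p under 0.05 and a smallest adjusted p of 0.52; slide as a fixed block gave 988 and scan day as a fixed block 367. Mela rose by 1.32 in KI mice, from -0.49 to -0.14 in 3 P22 mice to 0.87 to 1.26 in 6 week 11 mice, and the genotypes differed in the step by -0.99 ± 0.19 (adjusted p = 0.52). Il33 was at 0.46 in KI mice, where mouse 21 stood at 0.28 and the other 5 week 11 mice at -1.38 to -0.77 (difference between steps -0.96, adjusted p = 0.871). Per2 went opposite ways, at 1.12 in KI mice (adjusted p = 0.00971) and -0.36 in WT mice, with an adjusted p of 0.52 for the difference. Of the 17 clock genes, 3 were called higher in KI mice (0.676% of all genes), with a median of 0.40.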

How the data were processed

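Cerebellar RNA of each mouse was amplified with an oligo(dT) primer and labelled with Cy5, and hybridised with the Cy3 pool on Agilent G4122F arrays, with no dye swap, per the labels' protocols. Per the file headers, the deposited scanner files hold spot and background intensity, log10 ratios of Cy5 over Cy3 from Agilent Feature Extraction 9.5.3.1, and flags of 0 or 1 in a unit recorded as other. The authors' deposited value table holds log2 ratios for 1901 probes and 4 control features, normalised in BRB-ArrayTools, per the series' design text, by a method not given in the sources used here; its direction is pool over mouse (correlation with Cy5 over Cy3 of -0.99972 to -0.96134 across arrays), its centring is unknown, and it served only as an alternative, with the sign turned.

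In limma 3.58.1 (R 4.3.3) the intensities of 43379 spots for 41174 probes had their background corrected by normexp (offset 50) and were normalised by loess within each array, with weight 0 for controls and outliers. Outlier spots were set to missing and the spots of a probe averaged. A probe was kept, 35598 in all, where 4 or more of the 30 arrays had Cy5 flagged well above background, and a comparison was tested with at least 3 usable arrays per group. The linear model held the 6 group means over all 30 arrays (24 residual and 3.97 prior degrees of freedom), with p values adjusted by the Benjamini-Hochberg method. Symbols came from a RefSeq table of GRCm38.p6 by accession for 23075 probes, by symbol for 9525 and from the files for 1885; 6689 had none. Bounds for saturated or dim probes compare normalised Cy5 means. In data simulated for the WT step on 35087 probes, 87.8% of changes of 1 and all changes of 2 (log2) were called, with 10 false calls. The simulated arrays were drawn independently, without effects of slide or scan day, so these values need not hold for the measured arrays. In the measured arrays the correlation within slide, used in the fit with slide as a random block, was 0.425. The share of false calls among the probes called in the mice was not tested.

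The comparison and the 35 gene lists were chosen with earlier results of these data known. The naming rule chose the 15 largest rises and 15 largest falls, called list members, members of the oligodendrocyte, sterol, immediate early, clock and red cell lists, in other lists the 2 with the smallest p, and Atxn7; H2-Ab1 and Cd74 were added after their values were seen. Some of these genes are not reported here. List values use each gene's brightest tested probe.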

Additional observations from a re-analysis of the deposited data

Results flagged for a closer look

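Among 76 groups of 4 or 5 mice examined, named genes and list medians, 6 held a mouse far from the others, and chance alone flags about 1 group in 20. In all 6 it was WT P22 mouse 26, the highest of its group and the 1 WT P22 mouse on slide 7. Its median over the oligodendrocyte precursor genes was -0.75, with the other 4 at -1.05 to -0.98, and over the clock genes 1.19, with the others at 0.58 to 0.67. It stood at 0.50 in Xdh (others 0.09 to 0.18), at 0.57 in Pkd2l1 (others -0.12 to 0.03), at 1.15 in Osbpl3 (others -0.19 to 0.12) and at 0.53 in Cldn11 (others 0.06 to 0.17). Without mouse 26 the step called 905 probes, and without mice 26 and 23 together 679. The part of its slide, its bright array and the mouse itself in these values was not tested.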

How the results depend on the processing

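The WT step called 597 probes. Median centring of each array in place of loess gave 1126, scale normalisation 94, Cy5 alone 368, slide as a fixed block 1161, slide as a random block 302, array weights 2862, the deposited values 127 of 1719 probes (30 higher, 97 lower) and a 2-fold minimum 85; scan day as a fixed block gave 429, of which 84 were among the 597. Leaving out each mouse in turn gave 251 (mouse 30) to 905 (mouse 26), with 329 without mouse 31, 267 without mouse 32 and 324 without mouse 33. The KI step called 454 and gave 150, 145, 2052, 1961, 1607, 4260, 222 and 81 under the same settings in that order, 1799 with scan day as a fixed block and 121 to 902 without each mouse in turn. The difference between the steps called 0 and gave 988 with slide and 367 with scan day as a fixed block, 28 with array weights, 0 to 2 without each mouse in turn and 1 without mice 26 and 23, an alternative chosen after seeing the data. Of the 55 called genes that the naming rule chose, 28 kept the call without each mouse in turn. Calls ended for 41 under scale normalisation, 22 under median centring, 26 and 18 with slide as a fixed and a random block and 43 with scan day; with array weights all 55 kept theirs. The sign turned in 1, Ldha, at 0.054 under median centring. Apart from these constructions, the cause of the changes was not tested. No paired analysis was possible because the groups share no mouse numbers. Saturated spots and spots near background limit what the arrays can size, and fits with slide as a fixed block are approximate where values are missing.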
